A study of Mus musculus with 8 samples.

Results

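Collagens, laminins and small leucine-rich proteoglycans are the structural genes of the extracellular matrix that surrounds every fat cell. They were picked by symbol: the numbered collagen chains (as Col1a1), the numbered laminin chains (as Lama2), and the proteoglycans Dcn, Bgn, Lum, Fmod, Ogn, Aspn and Prelp. The arrays carried 79 probes for 52 such genes. Of these, 37 genes were above background on at least 2 of 8 arrays and were tested, among 9803 genes tested in all. Each tested gene is represented by its brightest probe, and 25 of the 37 were above background on all 8 arrays.

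The samples were adipose tissue of obese mice fed a high-fat diet, all on the C57Bl6 background and fasted for 5 h. The groups were sgp130Fc transgenic mice (n = 3, 26 weeks old), IL6 knock-out mice (IL6_KO, n = 3, 25 weeks old) and wild-type mice (WT, n = 2, 24 weeks old). sgp130Fc is a soluble form of the receptor chain gp130 fused to an antibody Fc part, which binds the complex of IL-6 and soluble IL-6 receptor. It thereby blocks IL-6 trans-signalling, whereas the knock-out lacks IL-6 altogether. The sources used here give neither the promoter of the transgene nor the fat depot or the sex. Genotype and age in weeks differ together and cannot be told apart. Replicates carry numbers in the labels but are not stated to be separate animals, so the p-values describe the spread of these samples only, which may be technical in part.

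Fibrillar collagens form the tensile cables of the interstitial matrix. Collagen IV and the laminins build the basement membrane, a thin sheet that wraps each adipocyte and each capillary, and collagen VI forms beaded filaments next to it. Small leucine-rich proteoglycans bind collagen fibrils and control their thickness and spacing. In obesity, matrix is deposited in fat tissue, and collagen VI is well known for its part in how far adipocytes can expand.

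Raw intensity had a median of 109.1 to 145 on the arrays, and 48.6% to 52.1% of probes exceeded background. The array of IL6_KO replicate 2 stood apart, correlating with the rest at 0.944 on average over probes, against 0.964 to 0.973 for each of the others. Several results that involve IL6_KO are therefore given with and without it, and the others only with it. The Il6 probe read 4.78, 4.62 and 4.46 in sgp130Fc fat, 5.17, 5.07 and 5.16 in IL6_KO fat and 4.40 and 4.47 in WT fat. It was above background on 2 arrays, both IL6_KO. Because the position of this probe relative to the deletion was not settled here, it is no check of the genotype. Adipocyte genes marked the tissue as fat: Adipoq, the adipokine adiponectin, read 13.35 to 13.44 in sgp130Fc, 12.15 to 13.57 in IL6_KO and 13.59 to 13.63 in WT fat. The probe of Fabp4, a fatty acid carrier of adipocytes, was dim throughout (4.43 to 6.20).

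Levels are normalized log2 intensities, on which one unit is a doubling. They compare 1 probe across arrays and not 1 gene with another. Dcn, Prelp, Bgn, Col4a1, Col6a1 and Col4a2 lay above 11.9 on every array. At the dim end, 6 tested genes were above background on only 2 to 4 arrays. The remaining 15 of 52 genes were not tested. Of these, Col17a1 and Col24a1 were above background on 1 array. Aspn, Col10a1, Col11a1, Col13a1, Col19a1, Col26a1, Col4a3, Col4a4, Col4a6, Col6a6, Col8a2, Col9a3 and Lama1 were above background on none. Among them are the collagen IV chains typical of kidney filters and the laminin chain typical of embryonic tissue.

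**Figure D1:**
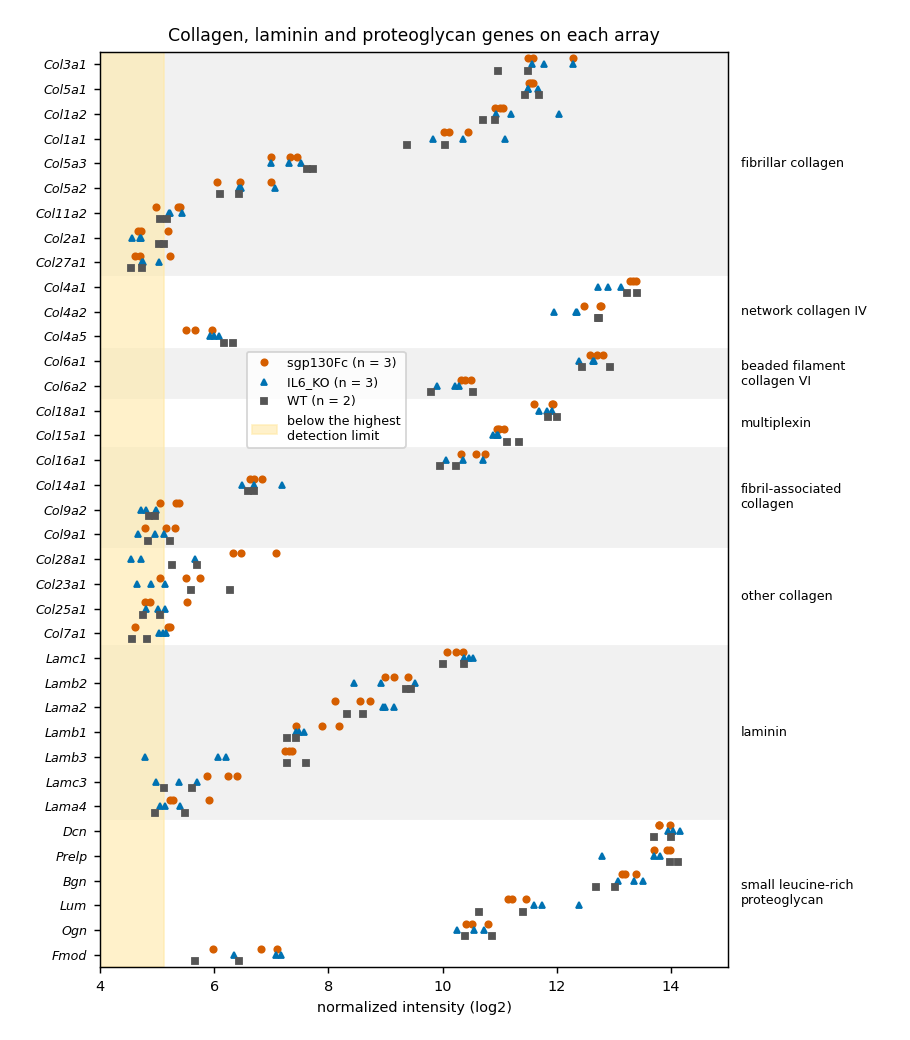
Normalized log2 intensity of the 37 tested genes on each array, grouped by class, with sgp130Fc (n = 3), IL6_KO (n = 3) and WT (n = 2) in separate colours and each gene by its brightest probe. The shaded strip marks levels below the highest detection limit of an array (5.12); most genes keep their own level across all 8 arrays, and Lamb3 and Col28a1 show the widest gaps between groups.

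Of the matrix genes, 1 passed the test in 1 of the 3 comparisons. In the limma test with Benjamini-Hochberg adjustment over all 14141 probes, 0 of 37 genes passed in IL6_KO against WT, where 0.248% of all probes passed. In sgp130Fc against WT 0 of 37 passed, where 0.0919% of all probes passed. In sgp130Fc against IL6_KO 1 of 37 passed, Col28a1, where 1.27% of all probes passed. At an unadjusted p under 0.05 the counts were 7, 3 and 8 of 37, against 20.6%, 8.23% and 17.8% of all probes. The 2 WT arrays enter both comparisons with WT. Tissue arrays cannot tell fewer cells of a type from less RNA per cell.

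The median log2 difference of the 37 genes was -0.02 in IL6_KO against WT, 0.07 in sgp130Fc against WT and 0.06 in sgp130Fc against IL6_KO. Over all 9803 tested genes these medians were -0.0026, -0.0053 and 0.0013. As deviations from each gene's mean over the arrays, the median of the 37 genes was 0.02 to 0.05 on the sgp130Fc arrays, -0.04 to -0.02 on the IL6_KO arrays and -0.11 to -0.05 on the WT arrays. These ranges did not overlap, but the nearest IL6_KO and WT arrays, at -0.0427 and -0.0483, lay closer than the pooled SD within groups (0.0277). The order of IL6_KO above WT also differs from the sign of the median difference, so the separation is no result about the family. Over the 25 genes above background on all 8 arrays these medians were -0.03 to 0.05, -0.03 to 0.12 and -0.14 to -0.04 in the same groups, and the sgp130Fc and IL6_KO ranges overlapped. The typical standard error of a single member's difference was 0.22 against WT and 0.20 between sgp130Fc and IL6_KO. Without overlap between the arrays, 8 of 37 members were higher and 9 lower in IL6_KO than in WT (45.9% of members), where 40.1% of all genes did not overlap in either direction. In sgp130Fc against WT 6 members were higher and 3 lower (24.3%), beside 29.6% of all genes. In sgp130Fc against IL6_KO 7 members were higher and 3 lower (27.0%), beside 27.0% of all genes. These shares lie near those of all genes, so the counts are no result about the family.

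**Figure D2:**
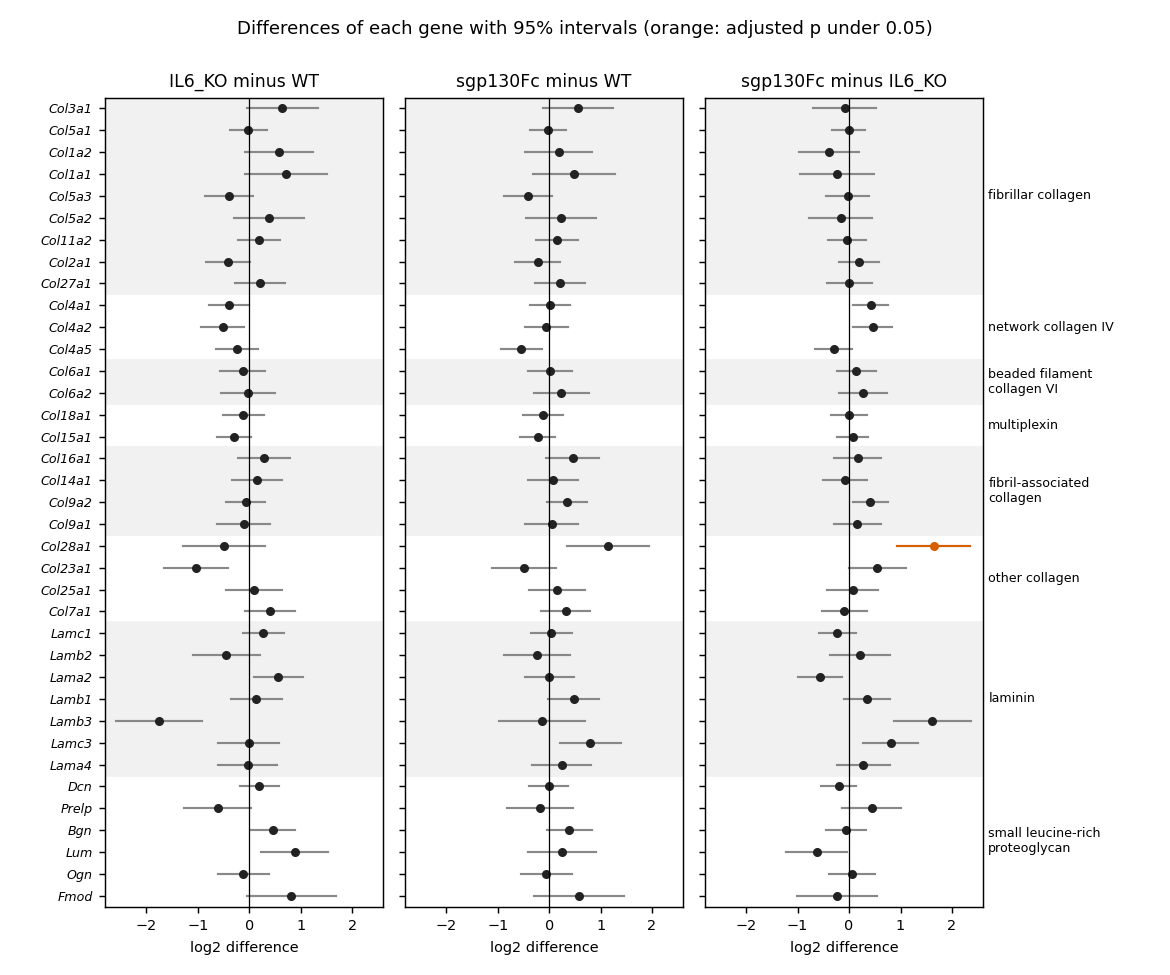
Log2 difference of each tested gene with its 95% interval from the limma fit, in 3 panels, each titled with its comparison. The only interval in orange, for an adjusted p under 0.05, is that of Col28a1 in sgp130Fc minus IL6_KO (1.65), and the intervals of most genes cross 0.

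Col28a1 encodes a short collagen known from the sheaths of peripheral nerves, and lies at chr6:7997100-8193709 (GRCm38.p6). It read 7.07, 6.33 and 6.48 in sgp130Fc fat, 4.55, 4.73 and 5.67 in IL6_KO fat and 5.70 and 5.26 in WT fat. All 3 sgp130Fc arrays lay above every other array, and 1 of 3 IL6_KO arrays was above background. Col28a1 rose in sgp130Fc relative to IL6_KO by 1.65 ± 0.32 (SE, 95% interval 0.93 to 2.36), a 3.13-fold higher level, with an adjusted p of 0.0457 in the limma test. Against WT the difference was 1.15 in sgp130Fc (adjusted p = 0.456) and -0.50 in IL6_KO (adjusted p = 0.450). The call is a narrow one. It was lost when any single array other than IL6_KO replicate 3 was left out, with adjusted p-values up to 0.183, and without that array it was 0.0117. Without background correction the difference was 0.63 (adjusted p = 0.0702), and the adjusted p was 0.119 without a detection filter and 0.0653 in a fit of the 2 groups alone. Of the Schwann cell markers, Mbp, a myelin protein, was the only one tested, and read 8.09, 7.87 and 8.31 in sgp130Fc, 8.75, 9.07 and 8.72 in IL6_KO and 8.36 and 8.19 in WT fat. Mbp differed by -0.18 in sgp130Fc against WT (adjusted p = 0.846) and by -0.75 in sgp130Fc against IL6_KO (adjusted p = 0.0787), and passed in no comparison. S100b was above background on fewer than 2 arrays. The part of nerve tissue in the Col28a1 values was not tested.

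Lamb3, the beta 3 chain of laminin-332, is best known from epithelial basement membranes and lies at chr1:193294353-193343878 (GRCm38.p6). It read 7.36, 7.30 and 7.24 in sgp130Fc fat, 6.06, 4.79 and 6.20 in IL6_KO fat and 7.27 and 7.61 in WT fat. Every IL6_KO array lay below every other array, and 2 of the 3 were above background. The difference was -1.76 ± 0.37 in IL6_KO against WT (95% interval -2.60 to -0.92, adjusted p = 0.0835) and 1.62 ± 0.33 in sgp130Fc against IL6_KO (interval 0.87 to 2.37, adjusted p = 0.0588), so neither passed. With the divergent array of IL6_KO replicate 2 left out, Lamb3 fell by 1.30 in IL6_KO relative to WT (adjusted p = 0.0346) and rose by 1.16 in sgp130Fc relative to IL6_KO (adjusted p = 0.0190). Over all alternatives the adjusted p ran between 0.0307 and 0.243 for IL6_KO against WT and between 0.00459 and 0.206 for sgp130Fc against IL6_KO. Of the epithelial markers, Krt14 and Cdh1 were tested, and Krt5, Krt18 and Csn3 were above background on fewer than 2 arrays. The summed level of the tested 2 was 5.88 to 6.24 in sgp130Fc, 6.27 to 7.85 in IL6_KO and 5.80 to 6.09 in WT fat. The spread of this sum is that of Krt14, which read 5.31, 5.41 and 4.84 in sgp130Fc, 6.39, 5.40 and 7.64 in IL6_KO and 5.02 and 4.51 in WT fat, whereas Cdh1 differed by -0.04 in IL6_KO against WT. Krt14 differed by 1.71 in IL6_KO against WT (adjusted p = 0.143), the opposite sign to Lamb3. Among the IL6_KO arrays Krt14 and Lamb3 were both lowest on replicate 2. The summed adipocyte, endothelial and smooth muscle markers were lowest on that array too. The part of epithelial cells in the Lamb3 values was not tested.

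The windows upstream of these genes are shown because they had the largest differences in sgp130Fc against IL6_KO and because IL-6 receptors signal through STAT factors, whose binding letters are TTCNNNGAA. The 250 bases before a RefSeq transcript start of each gene, in GRCm38.p6 and 5′ to 3′, are given below at chr6:8192618-8192867 on the minus strand for Col28a1 and chr1:193301744-193301993 on the plus strand for Lamb3, both inside the annotated span of the gene. Capitals mark a match.
Col28a1: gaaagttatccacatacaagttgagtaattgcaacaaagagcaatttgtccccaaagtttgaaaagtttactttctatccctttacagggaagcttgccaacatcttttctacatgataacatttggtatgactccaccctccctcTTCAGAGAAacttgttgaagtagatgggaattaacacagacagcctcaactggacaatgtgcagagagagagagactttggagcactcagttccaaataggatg
Lamb3: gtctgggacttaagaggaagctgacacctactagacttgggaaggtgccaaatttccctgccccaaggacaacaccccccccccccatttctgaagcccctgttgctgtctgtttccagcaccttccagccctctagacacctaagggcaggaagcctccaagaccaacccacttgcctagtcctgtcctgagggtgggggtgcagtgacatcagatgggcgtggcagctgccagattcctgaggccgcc
The Col28a1 window holds 1 match, which starts 104 bases upstream of the start, and the Lamb3 window none. Letters were searched on both strands of windows of 300 bases around each start. TTCNNNGAA was found in 6.25% of 32 windows of the 28 members that have one, in Col28a1 and Lamb2, against 8.30% of all 32851 windows. The shares were 59.4% against 35.7% for GGGCGG, the GC box, 40.6% against 37.4% for CCAAT and 9.38% against 13.6% for TATAAA, the TATA box. The printed match overlaps no other motif searched.

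Fibrillar collagens gave 9 tested genes, of which none passed in any comparison. Their median difference was 0.21 in IL6_KO against WT, 0.18 in sgp130Fc against WT and -0.04 in sgp130Fc against IL6_KO. The chains of collagen I and III, the main fibrils of scar and interstitial matrix, had higher means in both other groups than in WT. Col1a1 read 10.11, 10.02 and 10.45 in sgp130Fc, 10.35, 11.10 and 9.83 in IL6_KO and 9.37 and 10.03 in WT fat. The IL6_KO and WT ranges overlapped, and the difference was 0.72 ± 0.35 in IL6_KO against WT (interval -0.08 to 1.52, adjusted p = 0.281) and 0.49 in sgp130Fc against WT (adjusted p = 0.763). Without IL6_KO replicate 2 the IL6_KO difference was 0.39 (adjusted p = 0.580), and over all single arrays left out it ran between 0.39 and 1.05.

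Col1a2, the partner chain of collagen I, read 11.01, 10.91 and 11.07 in sgp130Fc, 11.20, 12.04 and 10.93 in IL6_KO and 10.71 and 10.92 in WT fat. Its difference in IL6_KO against WT was 0.57 (adjusted p = 0.298), and 0.25 without IL6_KO replicate 2. Col3a1, the chain of collagen III, read 11.59, 11.50 and 12.28 in sgp130Fc, 11.77, 12.28 and 11.58 in IL6_KO and 10.97 and 11.50 in WT fat. Both genotypes lay above WT without overlap, narrowly so, by 0.56 in sgp130Fc (adjusted p = 0.687) and 0.64 in IL6_KO (adjusted p = 0.264). Leaving out single arrays moved these differences of Col3a1 between 0.29 (without WT replicate 1) and 0.82 (without WT replicate 2) in sgp130Fc, and between 0.38 and 0.91 in IL6_KO on leaving out the same arrays. Without sgp130Fc replicate 3 the sgp130Fc difference was 0.31. A second, dim Col3a1 probe differed by -0.08 in sgp130Fc against WT, and the mean of both probes by 0.24. Col5a1, which starts collagen I fibrils, was among the steadiest members. It read 11.51, 11.58 and 11.55 in sgp130Fc, 11.49, 11.68 and 11.49 in IL6_KO and 11.44 and 11.69 in WT fat, with differences between -0.02 and -0.01.

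Col5a3, a minor chain of collagen V, was among the 3 of 9 fibrillar genes with a negative difference in both comparisons with WT. It read 7.32, 7.45 and 6.99 in sgp130Fc, 7.32, 7.00 and 7.53 in IL6_KO and 7.72 and 7.62 in WT fat. Both genotypes lay below WT without overlap, by -0.42 in sgp130Fc (adjusted p = 0.667) and -0.39 in IL6_KO (adjusted p = 0.317). The other fibrillar genes were Col5a2, Col11a2, Col2a1 and Col27a1, with differences between -0.41 and 0.39 across all comparisons. Col2a1, the cartilage collagen, was above background on 0 of 3 IL6_KO arrays and 1 of 2 WT arrays.

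Collagen IV, the network collagen of basement membranes, was tested through Col4a1, Col4a2 and Col4a5. All 3 were lower in IL6_KO than in WT without overlap, with a median difference of -0.40, and none passed. Col4a1 read 13.34, 13.28 and 13.39 in sgp130Fc, 12.89, 12.73 and 13.13 in IL6_KO and 13.41 and 13.22 in WT fat. The difference was -0.40 ± 0.17 in IL6_KO against WT (adjusted p = 0.232) and 0.42 ± 0.15 in sgp130Fc against IL6_KO (interval 0.07 to 0.77, adjusted p = 0.204). Col4a2 read 12.78, 12.76 and 12.48 in sgp130Fc, 12.36, 11.96 and 12.33 in IL6_KO and 12.74 and 12.72 in WT fat. Its difference was -0.52 ± 0.18 in IL6_KO against WT (interval -0.93 to -0.10, adjusted p = 0.174) and 0.46 ± 0.17 in sgp130Fc against IL6_KO (adjusted p = 0.20). Without IL6_KO replicate 2 these differences of Col4a1 and Col4a2 against WT were -0.30 (adjusted p = 0.452) and -0.39 (adjusted p = 0.347). Those in sgp130Fc against IL6_KO were then 0.32 (adjusted p = 0.45) and 0.33 (adjusted p = 0.44).

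Col4a1 and Col4a2 encode chains that assemble together, and stand head to head on chromosome 8 of GRCm38.p6, with 85 bases of their annotated spans overlapping. In sgp130Fc fat both stayed near WT, at 0.02 and -0.06. Col4a5, a chain of another collagen IV network, did not share this pattern. It read 5.66, 5.96 and 5.50 in sgp130Fc, 5.99, 5.93 and 6.09 in IL6_KO and 6.16 and 6.33 in WT fat. It lay lowest in sgp130Fc, with a difference from WT of -0.54 ± 0.18 (interval -0.94 to -0.14, adjusted p = 0.470) and from IL6_KO of -0.30 (adjusted p = 0.360).

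**Figure D3:**
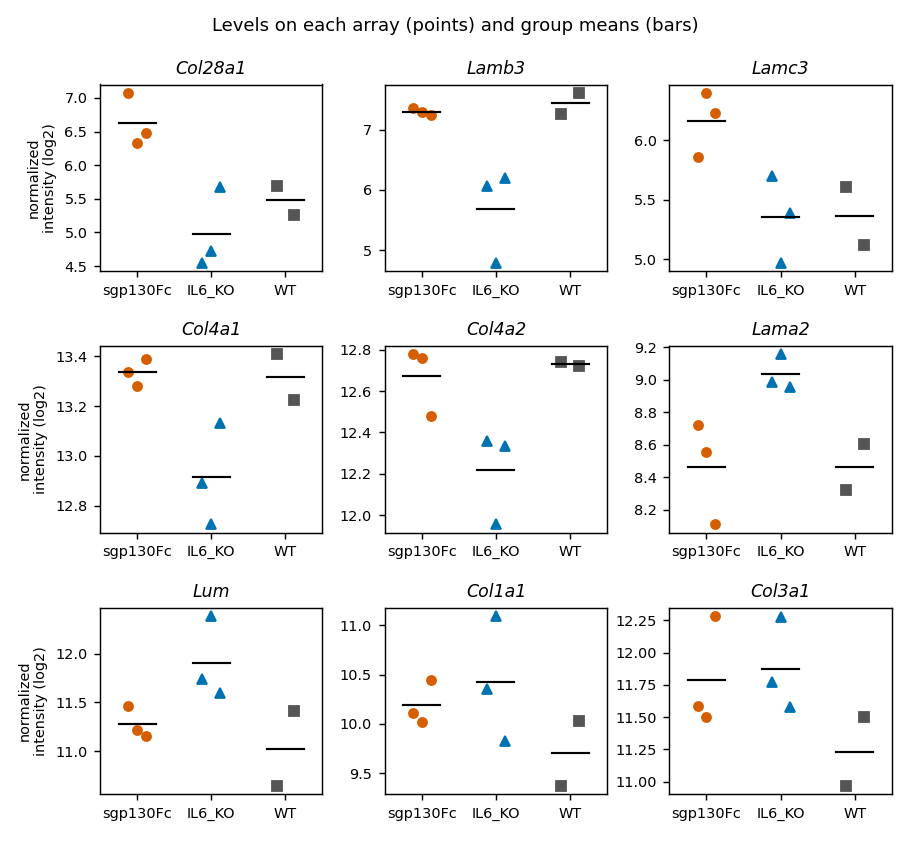
Normalized log2 intensity of Col28a1, Lamb3, Lamc3, Col4a1, Col4a2, Lama2, Lum, Col1a1 and Col3a1 on each array, each panel with its own axis that does not start at 0. Points are arrays and bars are group means; Lamb3, Col4a1 and Col4a2 are lowest on the 3 IL6_KO arrays, and Lama2 and Lum are highest there.

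Basement membrane partners are proteins that link the laminin and collagen IV sheets, such as the nidogens and the heparan sulphate proteoglycan perlecan. Of 16 listed genes, 14 had a probe and 9 were tested, and none passed. All 9 had a negative difference in IL6_KO against WT, with a median of -0.37, against -0.0026 over all genes. In sgp130Fc against IL6_KO, 8 of 9 were positive with a median of 0.19, and in sgp130Fc against WT 3 of 9 were positive with a median of -0.06. Hspg2, perlecan, read 11.95, 11.98 and 12.04 in sgp130Fc, 11.28, 11.23 and 11.69 in IL6_KO and 11.78 and 11.75 in WT fat. Its difference was 0.59 in sgp130Fc against IL6_KO (adjusted p = 0.120). Nid2, nidogen 2, read 9.43, 9.16 and 8.87 in sgp130Fc, 9.07, 8.92 and 9.56 in IL6_KO and 9.86 and 9.96 in WT fat, and was lower than WT by -0.75 in sgp130Fc (adjusted p = 0.456) and -0.72 in IL6_KO (adjusted p = 0.151).

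Endothelial, pericyte and smooth muscle cells make much of this basement membrane, and their markers are given beside it. All 8 tested endothelial markers had negative differences in IL6_KO against WT (median -0.74) and positive ones in sgp130Fc against IL6_KO (median 0.80). In IL6_KO against WT none of them passed, and none of the smooth muscle and pericyte markers did. The endothelial summed level was 13.14 to 13.28 in sgp130Fc, 12.16 to 12.75 in IL6_KO and 13.17 to 13.37 in WT fat. Emcn and Esam, surface proteins of endothelium, rose in sgp130Fc relative to IL6_KO by 0.83 (adjusted p = 0.0259) and 0.91 (adjusted p = 0.0388), and Myh11, a smooth muscle myosin, by 1.17 (adjusted p = 0.0342). Each of these 3 calls was lost without IL6_KO replicate 1 or without any one sgp130Fc array (adjusted p 0.0774 to 0.172), and with the replicate number as a block (0.0587 to 0.0753). Those of Esam and Myh11 were also lost without either WT array, without a detection filter (0.0602 and 0.0741) and in a fit of the 2 groups alone (0.0596 and 0.0553), and that of Esam without IL6_KO replicate 2 (0.0584). The 7 tested smooth muscle and pericyte markers summed to 12.48 to 12.63 in sgp130Fc, 11.34 to 12.27 in IL6_KO and 12.88 to 13.28 in WT fat. Among them Des, the filament protein desmin, differed by 0.0024 in IL6_KO against WT and -0.05 in sgp130Fc against IL6_KO. Myh11 came closest to passing in IL6_KO against WT, at -1.40 (adjusted p = 0.053). Over all alternatives its adjusted p there ran between 0.028 and 0.234, so it passed in some of them. Markers of adipocytes, which make basement membrane too, summed to 16.10 to 16.24 in sgp130Fc, 14.70 to 16.13 in IL6_KO and 16.38 to 16.39 in WT fat. Of the 11 tested, only Retn passed, and only in IL6_KO against WT, at -1.94 (adjusted p = 0.0467), where 0.248% of all probes passed. The alternatives were not run for Retn. The part of these cell types in the collagen IV values was not tested.

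**Figure D4:**
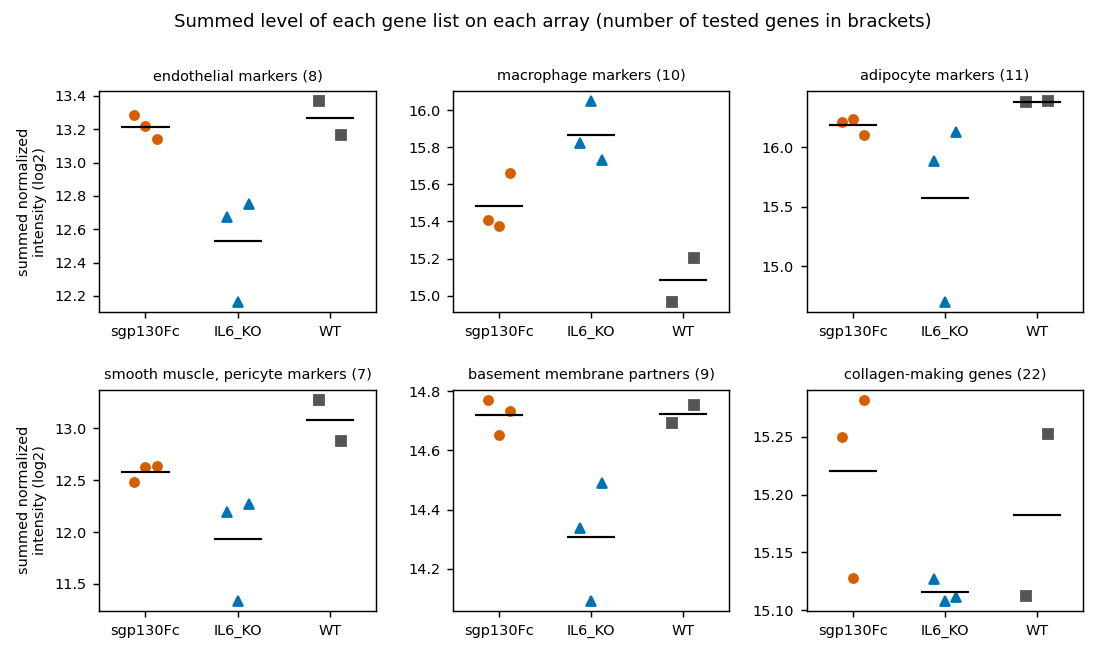
Log2 of the summed normalized intensity of the tested genes in 6 lists on each array, for sgp130Fc, IL6_KO and WT; points are arrays, bars are group means, and each panel has its own axis that does not start at 0. The endothelial sums and the basement membrane partner sums are lowest on the 3 IL6_KO arrays, and macrophage sums are highest there. A sum weighs its brightest genes most, and in the basement membrane partners the brightest is Sparc (13.41 to 14.10). Sparc is also among the collagen-making genes.

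Laminins gave 7 tested chains, none of which passed, with medians of -0.01 in IL6_KO against WT, 0.04 in sgp130Fc against WT and 0.27 in sgp130Fc against IL6_KO. Lama2, the alpha chain of the laminins around muscle and fat cells, read 8.72, 8.56 and 8.11 in sgp130Fc, 8.99, 9.15 and 8.96 in IL6_KO and 8.32 and 8.61 in WT fat. All IL6_KO arrays lay above all others. The difference was 0.57 ± 0.21 in IL6_KO against WT (interval 0.09 to 1.04, adjusted p = 0.184) and -0.57 ± 0.19 in sgp130Fc against IL6_KO (adjusted p = 0.174). Without IL6_KO replicate 2 these were 0.50 and -0.51. These signs are opposite to those of Lamb3, Col4a1 and Col4a2 in the same comparisons.

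Lamc3, a gamma chain found in few tissues, was highest in sgp130Fc fat. It read 5.86, 6.40 and 6.23 in sgp130Fc, 5.70, 4.97 and 5.39 in IL6_KO and 5.61 and 5.12 in WT fat, with no overlap between sgp130Fc and the other arrays. The difference was 0.80 ± 0.26 against WT (adjusted p = 0.470) and 0.81 ± 0.24 against IL6_KO (interval 0.28 to 1.34, adjusted p = 0.137). Lamb1, the common beta chain, read 7.43, 7.89 and 8.19 in sgp130Fc, 7.44, 7.56 and 7.48 in IL6_KO and 7.28 and 7.44 in WT fat. It differed by 0.47 in sgp130Fc against WT (adjusted p = 0.643).

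Lamb2, another beta chain, read 9.14, 8.99 and 9.40 in sgp130Fc, 8.91, 8.45 and 9.53 in IL6_KO and 9.46 and 9.36 in WT fat, with ranges that overlapped in each comparison. Lamc1, the gamma chain of most laminins, read 10.37, 10.23 and 10.08 in sgp130Fc, 10.47, 10.54 and 10.37 in IL6_KO and 10 and 10.38 in WT fat. Lama4, the alpha chain of laminin in capillaries and around adipocytes, was dim at 5.90, 5.23 and 5.27 in sgp130Fc, 5.39, 5.14 and 5.05 in IL6_KO and 5.49 and 4.96 in WT fat. The differences of these 3 genes lay between -0.44 and 0.27, and their adjusted p-values were 0.404 or higher.

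Collagen VI was tested through Col6a1 and Col6a2. Col6a1 read 12.71, 12.81 and 12.59 in sgp130Fc, 12.39, 12.64 and 12.64 in IL6_KO and 12.45 and 12.93 in WT fat. Col6a2 read 10.49, 10.32 and 10.39 in sgp130Fc, 10.21, 9.89 and 10.29 in IL6_KO and 9.79 and 10.53 in WT fat. The pair of WT arrays spanned the values of both other groups for Col6a2. All differences of the 2 genes lay between -0.13 and 0.27, and the 95% intervals reached from -0.56 to 0.77. Multiplexins release the anti-angiogenic endostatin and similar fragments. Col15a1 read 10.95, 10.996 and 11.08 in sgp130Fc, 10.96, 10.88 and 10.97 in IL6_KO and 11.33 and 11.14 in WT fat. Both genotypes lay below WT without overlap, by -0.22 in sgp130Fc (adjusted p = 0.749) and -0.30 in IL6_KO (adjusted p = 0.294). Col18a1 read 11.91, 11.93 and 11.59 in sgp130Fc, 11.84, 11.69 and 11.92 in IL6_KO and 11.85 and 12.01 in WT fat, with differences between -0.12 and -0.0024.

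The remaining collagens were mostly dim. Col23a1, a transmembrane collagen, read 5.75, 5.04 and 5.51 in sgp130Fc, 4.89, 4.65 and 5.13 in IL6_KO and 6.27 and 5.60 in WT fat. Its level in IL6_KO was above background on 1 of 3 arrays, with a difference from WT of -1.04 ± 0.27 (interval -1.66 to -0.42, adjusted p = 0.115). Fibril-associated collagens decorate fibril surfaces. Their 4 tested genes, Col16a1, Col14a1, Col9a1 and Col9a2, were all positive in sgp130Fc against WT, with differences between 0.05 and 0.45 and adjusted p-values of 0.667 or higher. Col9a2 was above background on 2 of 3 sgp130Fc arrays and on none of the others. Col9a2 thus met the detection filter only through the group where it read higher, so its positive sign is no evidence of a rise in sgp130Fc. Col25a1 and Col7a1, the anchoring-fibril collagen, differed by between -0.09 and 0.41 and passed nowhere.

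Small leucine-rich proteoglycans had medians of 0.32 in IL6_KO against WT, 0.12 in sgp130Fc against WT and -0.14 in sgp130Fc against IL6_KO over 6 tested genes, and none passed. Lum, lumican, which spaces collagen fibrils, read 11.47, 11.21 and 11.15 in sgp130Fc, 11.74, 12.39 and 11.60 in IL6_KO and 10.64 and 11.41 in WT fat. All IL6_KO arrays lay above all others, by 0.88 ± 0.29 against WT (interval 0.22 to 1.54, adjusted p = 0.154). In sgp130Fc against IL6_KO the difference was -0.63 (adjusted p = 0.256). Without IL6_KO replicate 2 the IL6_KO difference from WT was 0.64 (adjusted p = 0.302), and that in sgp130Fc against IL6_KO was -0.39 (adjusted p = 0.567). The 2 WT arrays were unlike for Lum, and the difference was 0.50 (adjusted p = 0.472) without WT replicate 1 and 1.26 without WT replicate 2.

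Fmod, fibromodulin, which binds collagen I fibrils, read 5.98, 6.81 and 7.09 in sgp130Fc, 7.18, 7.08 and 6.34 in IL6_KO and 6.43 and 5.67 in WT fat. Its difference of 0.81 in IL6_KO against WT had an adjusted p of 0.265 and overlapping ranges. Bgn, biglycan, read 13.20, 13.15 and 13.38 in sgp130Fc, 13.35, 13.52 and 13.07 in IL6_KO and 12.69 and 13.03 in WT fat. Both genotypes lay above WT without overlap, by 0.39 in sgp130Fc (adjusted p = 0.669) and 0.45 in IL6_KO (adjusted p = 0.229). Prelp, which anchors basement membranes to fibrils, ran the other way at 13.93, 13.98 and 13.71 in sgp130Fc, 13.70, 12.80 and 13.81 in IL6_KO and 14.12 and 13.98 in WT fat. Its difference of -0.62 in IL6_KO against WT (adjusted p = 0.260) was -0.30 without IL6_KO replicate 2.

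Dcn, decorin, which binds collagen fibrils, read 13.78, 13.78 and 13.98 in sgp130Fc, 13.95, 14.17 and 14.04 in IL6_KO and 14.01 and 13.71 in WT fat. A second, dimmer Dcn probe separated the groups more, at 12.85, 12.83 and 12.65 in sgp130Fc, 13.22, 13.33 and 13.06 in IL6_KO and 12.87 and 12.98 in WT fat. Its difference in sgp130Fc against IL6_KO was -0.43 (adjusted p = 0.182), against -0.20 by the brighter probe. Ogn, osteoglycin, read 10.41, 10.52 and 10.79 in sgp130Fc, 10.54, 10.25 and 10.73 in IL6_KO and 10.87 and 10.38 in WT fat. Its 3 tested probes differed in sign in sgp130Fc against WT, at -0.05, 0.32 and 0.23. Altogether 6 members had several tested probes, and none of the additional probes passed.

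Markers of cells that make or accompany interstitial matrix were read beside these genes. The 9 tested fibroblast and progenitor markers, of the main source of fibrillar collagens and proteoglycans, summed to 12.90 to 13.12 in sgp130Fc, 13.06 to 13.13 in IL6_KO and 12.85 to 13.001 in WT fat. The 10 tested macrophage markers were all higher in IL6_KO than in WT (median 0.77) and summed to 15.38 to 15.66 in sgp130Fc, 15.73 to 16.05 in IL6_KO and 14.97 to 15.21 in WT fat. None of them passed. Red blood cell markers, of which 4 were tested, summed to 14.45 to 14.60 in sgp130Fc, 12.49 to 13.75 in IL6_KO and 14.55 to 14.63 in WT fat. Of these, Hbb-bt and Alas2 passed in IL6_KO against WT, at -2.52 (adjusted p = 0.0250) and -3.95 (adjusted p = 0.0406). Both also passed in sgp130Fc against IL6_KO, at 2.26 (adjusted p = 0.01025) and 2.75 (adjusted p = 0.0370). Among all probes 0.248% and 1.27% passed in these comparisons. The calls of Hbb-bt and Alas2 were not rerun with other processing or with single arrays left out. Hba-a1 and Slc4a1 passed in none. Ccl21a, a lymphatic and lymph node chemokine, read 5.25 to 7.33 in sgp130Fc, 6.35 to 8.11 in IL6_KO and 9.95 to 11.46 in WT fat. The 8 mesothelial markers, of the cells that line the abdominal cavity, were all positive in IL6_KO against WT (median 0.68). They summed to 9.37 to 10.46 in sgp130Fc, 10.41 to 10.67 in IL6_KO and 8.67 to 10.29 in WT fat. The 2 WT arrays were unlike, and the low sum was that of WT replicate 2, where 3 of the 8 markers were above background. The part of these cells in the values of Lum, Col1a1, Col3a1 and Bgn was not tested.

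No enzyme or chaperone of collagen synthesis passed. Of 37 listed genes, 29 had a probe and 22 were tested, with medians of 0.15 in IL6_KO against WT, 0.17 in sgp130Fc against WT and -0.04 in sgp130Fc against IL6_KO. P4ha2, a prolyl hydroxylase subunit, read 7.37, 7.70 and 7.59 in sgp130Fc, 7.30, 7.49 and 7.17 in IL6_KO and 8.00 and 7.77 in WT fat, with a difference of -0.56 in IL6_KO against WT (adjusted p = 0.148). Lox, which cross-links collagen, read 10.80, 10.51 and 10.58 in sgp130Fc, 10.25, 9.76 and 10.19 in IL6_KO and 10.02 and 10.44 in WT fat. Its difference of 0.57 in sgp130Fc against IL6_KO did not pass (adjusted p = 0.179).

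Other matrix glycoproteins gave 26 tested genes of 32 listed, and none passed. Thbs2, thrombospondin 2, a regulator of fibril assembly, read 10.13, 10.57 and 10.09 in sgp130Fc, 10.19, 10.40 and 9.88 in IL6_KO and 9.20 and 9.32 in WT fat. It lay above WT by 1.01 in sgp130Fc (adjusted p = 0.249) and 0.90 in IL6_KO (adjusted p = 0.103), without overlap. Spon2, spondin 2, read 8.04, 9.22 and 7.64 in sgp130Fc, 10.97, 9.28 and 10.98 in IL6_KO and 10.35 and 10.11 in WT fat. It differed by -2.11 ± 0.51 in sgp130Fc against IL6_KO (adjusted p = 0.0906).

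Receptors that bind matrix gave 21 tested genes of 26 listed, and none passed. Sdc1, syndecan 1, read 5.59, 6.44 and 6.24 in sgp130Fc, 7.12, 7.55 and 6.91 in IL6_KO and 5.63 and 6.07 in WT fat. It was higher on every IL6_KO array than on any other, by 1.34 ± 0.29 against WT (adjusted p = 0.0879). Itga1, the alpha 1 integrin chain that binds collagen IV, read 7.14, 7.06 and 6.84 in sgp130Fc, 6.47, 6.17 and 6.42 in IL6_KO and 6.84 and 6.68 in WT fat, with a difference of 0.66 in sgp130Fc against IL6_KO (adjusted p = 0.0857).

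Among 20 tested genes of the TGF-beta pathway, of 26 listed, 1 passed in sgp130Fc against IL6_KO, where 1.27% of all probes passed, and none passed in the comparisons with WT. Ccn2, connective tissue growth factor, which stimulates matrix production, read 11.13, 11.56 and 11.63 in sgp130Fc, 10.08, 9.68 and 10.37 in IL6_KO and 10.53 and 10.19 in WT fat. All sgp130Fc arrays lay above all others. Ccn2 rose by 1.40 ± 0.22 in sgp130Fc relative to IL6_KO (interval 0.90 to 1.90, adjusted p = 0.0233), and against WT the difference of 1.08 did not pass (adjusted p = 0.271). The call was lost without IL6_KO replicate 1 (adjusted p = 0.0858), without sgp130Fc replicate 1 (0.0543), 2 (0.122) or 3 (0.102), and without a detection filter (0.0585). The medians of the 20 genes were -0.02 in IL6_KO against WT, 0.05 in sgp130Fc against WT and 0.05 in sgp130Fc against IL6_KO.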

How the data were processed

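The deposited probe intensity is linear and, per the file headers, neither background-subtracted nor normalized; each array also has a detection p-value given by the authors. The authors also deposited normalized log2 values; the submitters' processing notes name GenomeStudio and limma without versions. The intensities were normalized again with neqc of limma 3.58.1 (R 4.3.3, offset 16), which gave values within 0.0548 of the deposited log2 values. Testing took in the 14141 probes (9803 genes) whose detection p was under 0.05 on 2 or more arrays. All 8 arrays entered 1 limma fit (lmFit, eBayes) with 3 group means and 8.98 degrees of freedom, tested two-sided at 0.05 after Benjamini-Hochberg adjustment across the tested probes of a comparison. Symbols came from the array annotation: 23978 probes had 1 symbol and 1719 none; all 52 family symbols matched RefSeq GRCm38.p6. The model was tried on simulated data with independent errors and no divergent array, which is no check of the calls reported here. The family members and the gene lists were chosen with earlier results of these data known. Values on every array are given for members that pass, the 3 highest and 3 lowest differences of each comparison, and a fixed set of abundant chains. From each other list of matrix genes they are given for genes that pass or the 2 of smallest p. Cell type markers are given mainly as sums over a list, with the markers that pass named. The sequences of the promoter windows are RefSeq's (GRCm38.p6).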

Additional observations from a re-analysis of the deposited data

How the results depend on the processing

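The number of arrays, 2 or 3 in a group, limits the precision. Alternatives kept 1455 of 1524 values of the 81 named differences at the same sign, and 68 of the 69 sign changes were of differences smaller than their own standard error. The exception was Col6a2 in sgp130Fc against WT, which was -0.14 without WT replicate 1 and 0.61 without WT replicate 2; the cause was not tested. For members passing in IL6_KO against WT, the count was 1 with array weights and 0 to 1 when single arrays were left out, and in sgp130Fc against WT it was 0 throughout. In sgp130Fc against IL6_KO the count was 2 with an offset of 50, 2 with an intensity trend, 4 with array weights (an estimate that stopped before it converged), 0 without a detection filter, 0 with detection on all 8 arrays (where Col28a1 is not tested), 0 with the 2 compared groups alone, 0 with the replicate number as a block, and 0 to 2 when single arrays were left out. The median difference of members in IL6_KO against WT was 0.13 with detection on all 8 arrays, 0.027 with the block and -0.054 to 0.11 when single arrays were left out. In sgp130Fc against WT it was 0.039 without background correction, 0.15 with scaling to the 75th percentile, 0.032 without a detection filter, 0.020 with detection on all 8 arrays, 0.11 with array weights, 0.15 with the block, 0.15 with the mean of all probes and 0.023 to 0.16 when single arrays were left out. In sgp130Fc against IL6_KO it was 0.020 without background correction, 0.10 with scaling to the 75th percentile, -0.028 with detection on all 8 arrays and 0.032 to 0.091 when single arrays were left out. The correlations between same-numbered samples, of deviations from their group means, ran between -0.35 and 0.18. With 2 or 3 arrays in a group these deviations are not independent, so this cannot decide whether same-numbered samples pair. With the replicate block Col28a1 had an adjusted p of 0.0706. Passing among all probes in sgp130Fc against IL6_KO numbered 179, against 1730 with array weights and 79 with the block.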
